A study of Mus musculus with 4 samples.

Results

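The 10 genes described here encode the enzymes that make serine from a glycolytic intermediate and those that carry its carbon through the folate cycle. They were chosen by name, and all 10 were found once among the 38293 genes of the deposited table. Polyadenylated RNA was sequenced from the ventricles of single mouse embryos of a C57BL/6 background at stage E12.5, all from litter 6, with atria and valves removed. The 2 cKO embryos were labelled Hif1alphaflox/flox/Nkx2.5Cre/+ and the 2 control littermates Hif1alphaflox/flox/Nkx2.5+/+. Floxed Hif1a was thus homozygous in all 4 embryos, and those of the cKO group had Cre recombinase in 1 copy of Nkx2.5, a gene active in cardiac precursors. Embryos with the Cre and intact Hif1a were not among the groups, so Hif1a loss, the Cre and the altered Nkx2.5 copy cannot be told apart. Ventricular tissue also holds cells in which this Cre may not act, and a count over a whole gene does not show the deletion: Hif1a itself averaged 690 ± 37.9 CPM (normalised counts scaled to library size) in the cKO group, against 541 ± 15.8 CPM among controls (SD, 2 libraries a group).

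Serine is made in the cytosol in a short chain of reactions that leaves glycolysis at 3-phosphoglycerate. Phgdh oxidises 3-phosphoglycerate, Psat1 adds an amino group taken from glutamate, and Psph removes the phosphate. Serine hydroxymethyltransferases (Shmt1 in the cytosol, Shmt2 mainly in mitochondria) then split serine into glycine and a carbon unit bound to tetrahydrofolate. In mitochondria Mthfd2 or its relative Mthfd2l oxidises that unit, Mthfd1l releases it as formate, and Aldh1l2 can burn it to CO2 while making NADPH. In the cytosol the single protein Mthfd1 carries the matching steps and feeds purine, thymidylate and methionine synthesis. Mthfd2 is known as an enzyme of embryonic and dividing cells. The transcription factor ATF4, which responds to amino acid shortage and to mitochondrial stress, is known to drive several of these genes.

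Phgdh and Mthfd2 rose in the cKO ventricles, and the other 8 genes did not pass the test. Aldh1l2 was the nearest of these 8, and Mthfd1l had the most negative fold change. Neither the mitochondrial nor the cytosolic enzymes moved as a block. The test was edgeR's quasi-likelihood test on counts scaled by the trimmed mean of M values (TMM), with Benjamini-Hochberg adjustment over the 13711 genes that passed the filter on low counts. All 10 genes passed that filter, with the lowest expected count, 115, in Psph. By this test 2 of the 10 rose and 0 fell, beside 0.146% of all tested genes that rose and 0.365% that fell. Expected counts totalled between 8561687 and 19801300 per library, the largest in cKO replicate 3. Replicates are separate embryos of 1 litter, so each p-value refers to variation among these 4 littermates. The test also draws on the other tested genes to estimate the variance of each gene.

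Promoters of 3 members are shown because these genes mark the range of the response: Phgdh and Mthfd2 rose, and Mthfd1l was the member furthest below control. Each is the 250 bases before the RefSeq start (build GRCm38.p6), less any that lie in an exon annotated for the gene, read on the gene's strand. The Mthfd2 stretch borders 1 annotated first exon and lies in an intron of another transcript, which starts upstream at 83325908. The Mthfd1l stretch ends at the RefSeq start, ahead of the annotated gene start at 3973118. Capitals mark the CCAAT box (CCAAT, either strand) in Phgdh and Mthfd2. In Mthfd1l they mark ACGTG (either strand), 1 form of the core of the HIF response element.
Phgdh, chr3:98339991-98340219, minus strand: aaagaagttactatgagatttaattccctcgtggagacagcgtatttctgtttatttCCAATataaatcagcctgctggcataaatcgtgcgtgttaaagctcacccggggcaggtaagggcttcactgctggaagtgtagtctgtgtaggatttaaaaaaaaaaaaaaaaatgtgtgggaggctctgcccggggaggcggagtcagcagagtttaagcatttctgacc
Mthfd2, chr6:83317607-83317854, minus strand: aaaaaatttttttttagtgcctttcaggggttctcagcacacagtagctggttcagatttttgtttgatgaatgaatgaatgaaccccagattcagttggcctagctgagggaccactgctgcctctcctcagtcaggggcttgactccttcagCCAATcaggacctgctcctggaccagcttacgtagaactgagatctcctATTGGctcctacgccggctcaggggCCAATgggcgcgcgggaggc
Mthfd1l, chr10:3972825-3973074, plus strand: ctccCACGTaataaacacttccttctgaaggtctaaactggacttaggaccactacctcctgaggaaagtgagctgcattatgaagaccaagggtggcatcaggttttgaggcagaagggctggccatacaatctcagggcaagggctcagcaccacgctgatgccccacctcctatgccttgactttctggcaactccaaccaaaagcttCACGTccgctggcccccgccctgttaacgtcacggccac

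RefSeq promoters were matched for 9 of the 10 genes, with 10 entries in all because Psat1 has 2; Aldh1l2 was not matched. In the 250 bases before the start, ACGTG occurred in 2 entries, those of Psph and Mthfd1l, against 16.6% of all 32851 mouse promoters. Mthfd1l held it at 2 places, starting at -246 and -39 from the start, and neither overlapped an E-box (CACGTG), which was in 0 member entries and 6.02% of all promoters. GCGTG, another form of the HIF response element core, was neither searched over the promoters nor marked. It can be read, on either strand, in the printed stretches of Phgdh and Mthfd1l, but its share over all promoters was not counted. CCAAT was in 6 entries (33.8% of all), at 3 places in Mthfd2 and 2 in Phgdh. Of those in Phgdh, 1 starts at -23 and runs over the end of the printed stretch. The remaining entries with CCAAT were those of Psph and Psat1 (2 places each) and of Shmt1 and Mthfd1 (1 place each). None of these genes passed the test. The ATF4-C/EBP response element, searched as TGATGNAA on either strand, was in 0 of the 10 entries and 3.45% of all promoters. The antioxidant response element, searched as TGACNNNGC on either strand, was in 1 entry, that of Phgdh, starting at -53 within the printed stretch, against 10.2% of all promoters. These are matches of letters in 1 short window, and say nothing of binding. The searches used all 250 bases of each entry, including any in an annotated exon of the gene. The Psph entry had 54 bases ahead of such an exon and the Shmt1 entry 0, so their matches lay beyond that point.

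Among the serine synthesis enzymes the genes differed. Phgdh (ENSMUSG00000053398, GRCm38 chromosome 3, 98313170 to 98339990, minus strand) reached 69.5 and 76.7 CPM in replicates 2 and 3 of cKO, against 39.4 and 44.7 CPM in those of control. Both cKO libraries were above both controls, and the gap between the groups was larger than the difference within either. The means were 73.1 ± 5.10 and 42.0 ± 3.74 CPM (SD, n = 2 each), a 1.74-fold rise with a 95% interval from 1.48 to 2.06 (edgeR adjusted p = 0.0172). The call was lost without cKO replicate 3 (adjusted p = 0.0652) or control replicate 2 (0.0766).

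Phgdh has 12 near-identical gene copies, of which 4 are in the deposited table and all 4 had 0 counts in every library. Its own counts were whole numbers (687 and 1527 in cKO, 333 and 405 in control). Whole numbers do not show whether reads of the copies absent from the table were counted in Phgdh. The other 9 members had no copy at 95% identity over 300 bases.

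Psat1 (chromosome 19, 15904678 to 15947337, minus strand), the aminotransferase that acts on the product of Phgdh, was at 60.6 and 70.5 CPM in cKO and at 56.5 and 76.4 CPM in control. The groups overlapped, and the 2 controls differed more from each other than the group means did. Its log2 fold change was -0.02 ± 0.15 (SE), with an interval from -0.35 to 0.32 (adjusted p = 0.989). That interval lies below the whole interval for Phgdh (0.56 to 1.04 on the log2 scale). Psph (chromosome 5, 129765558 to 129787449, minus strand), the phosphatase that releases serine, had the lowest counts of the set, at 16.0 and 18.0 CPM in cKO and 13.6 and 14.2 CPM in control. Both cKO libraries were above both controls, yet its difference of 0.30 ± 0.14 on the log2 scale was short of the threshold (adjusted p = 0.726). Psph shares 11 exon bases with Cct6a on the opposite strand, a gene with a log2 fold change of -0.01.

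**Figure D1:**
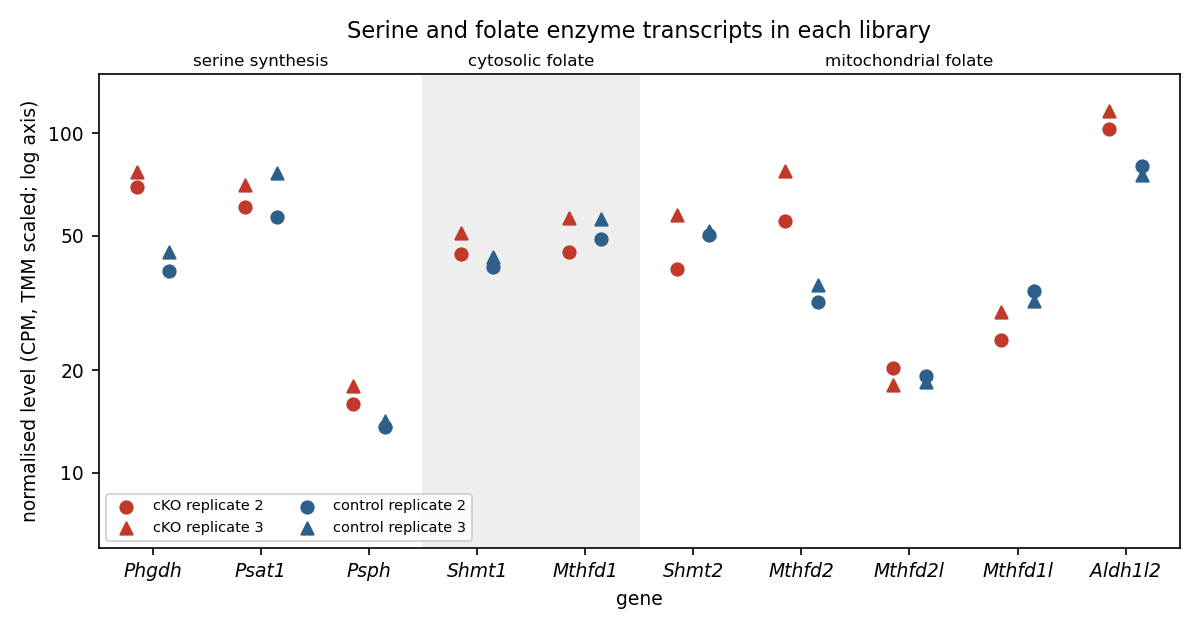
Level of each of the 10 enzyme transcripts in each library, in CPM scaled by TMM on a log axis; red is cKO, blue is control, circles are replicate 2 and triangles replicate 3. For Phgdh, Mthfd2 and Aldh1l2 both cKO points lie clear above both control points, while for Psat1, Mthfd1, Shmt2 and Mthfd2l the groups overlap.

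The pair of cytosolic folate genes gave no call. Shmt1 (chromosome 11, 60788104 to 60811718, minus strand) stood at 44.0 and 50.9 CPM in cKO and 40.4 and 43.2 CPM in control, so the groups did not overlap but lay close together. Its log2 fold change was 0.19 ± 0.10 (adjusted p = 0.763). It shares 184 exon bases with Smcr8 on the opposite strand, whose log2 fold change was 0.01, and its expected counts were not whole, so part of its reads had been divided between genes. Mthfd1 (chromosome 12, 76255298 to 76319803, plus strand) was at 44.6 and 56.2 CPM in cKO and 48.9 and 56.0 CPM in control. The 2 ranges nearly coincide, and the log2 fold change was -0.05 ± 0.13, with an interval from -0.35 to 0.25 (adjusted p = 0.956).

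The mitochondrial folate genes spread from the largest rise of the 10 to the largest negative difference. Mthfd2 (ENSMUSG00000005667, chromosome 6, 83305691 to 83325908, minus strand), the mitochondrial dehydrogenase and cyclohydrolase, was at 55.2 and 77.3 CPM in cKO and 31.8 and 35.6 CPM in control. Both cKO libraries exceeded both controls, and cKO replicate 3 exceeded cKO replicate 2 by more than the controls differed. The means were 66.2 ± 15.6 and 33.7 ± 2.70 CPM, a 1.98-fold rise with an interval from 1.54 to 2.55 (adjusted p = 0.0478). The call depended on the setting: the adjusted p was 0.0768 without cKO replicate 3, 0.179 without control replicate 2 and 0.229 without control replicate 3, and 0.000515 without cKO replicate 2. It also missed the threshold under limma-voom (0.0678) and under both other filters (0.0764 and 0.0703).

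Aldh1l2 (ENSMUSG00000020256, chromosome 10, 83487450 to 83534140, minus strand), which oxidises formyl-tetrahydrofolate to CO2, reached 103 and 116 CPM with the Cre, against 79.9 and 75.5 CPM in the controls. The groups did not overlap here either, with cKO replicate 3 the highest library. The 1.42-fold difference (interval 1.22 to 1.64) did not pass edgeR's test (adjusted p = 0.0876). It passed DESeq2's own test (adjusted p = 0.0175), which called 0.226% of all genes higher, and edgeR's without cKO replicate 2 (0.0414), which called 0.512% higher. Aldh1l2 shares 1056 of its 7503 exon bases with D10Wsu102e on the opposite strand, and the TruSeq RNA kit named in the labels is not a stranded kit. D10Wsu102e had a log2 fold change of -0.0022 ± 0.097.

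Shmt2 (chromosome 10, 127517123 to 127522444, minus strand), the mitochondrial partner of Shmt1, was at 39.8 and 57.3 CPM in cKO around the controls at 50.1 and 51.5 CPM. The cKO libraries lay on either side of the controls, and the log2 fold change was -0.05 ± 0.16 with an interval from -0.41 to 0.31 (adjusted p = 0.965). Mthfd2l (chromosome 5, 90931117 to 91021368, plus strand), which catalyses the same steps as Mthfd2, was at 20.3 and 18.1 CPM in cKO and 19.3 and 18.5 CPM in control. Its 4 libraries were the most alike of any member, with a log2 fold change of 0.02 ± 0.13 (interval -0.27 to 0.30, adjusted p = 0.988). Mthfd1l (chromosome 10, 3973118 to 4167081, plus strand), the synthetase that releases formate, was at 24.6 and 29.8 CPM in cKO and 34.3 and 32.1 CPM in control. It was the 1 member with both cKO libraries below both controls, at a log2 fold change of -0.27 ± 0.12 (unadjusted p = 0.0489, adjusted p = 0.708).

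**Figure D2:**
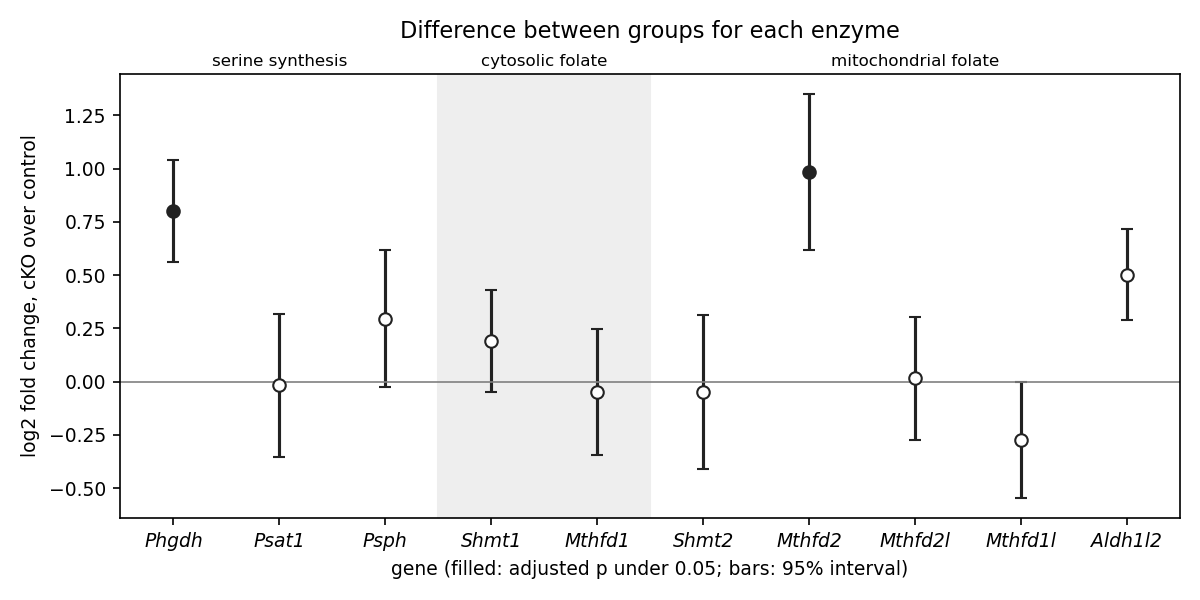
Log2 fold change of cKO over control for each enzyme, with bars for the 95% interval from edgeR's quasi-likelihood fit; filled points passed the adjusted threshold of 0.05. Phgdh (0.80) and Mthfd2 (0.99) are filled, Aldh1l2 (0.50) is open with its bar above 0, and the interval of Mthfd1l ends just below 0.

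Over the 10 genes the median log2 fold change was 0.10, beside -0.00031 over all tested genes. Positive fold changes numbered 6 of 10, against 49.9% of all genes. Both cKO libraries stood above both controls for 5 members (19.4% of all genes) and below for 1 (18.8%), and 4 members overlapped. The members were named with earlier results known, so these counts are a description. Of the 10 members, 9 were lower in cKO replicate 2 than in cKO replicate 3, and their median log2 difference from the control mean was 0.09 and 0.23 in these libraries. Over all genes these medians were 0.0040 and 0.0045. The size of a member's difference thus varied between the 2 cKO embryos, while Phgdh, Mthfd2 and Aldh1l2 were above the control mean in each (0.73 and 0.87, 0.71 and 1.19, 0.41 and 0.58).

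Levels of different genes were compared per kilobase of the longest coding transcript listed for each. In control the order of mean CPM per kilobase was led by Psat1 (25.4 ± 5.38), Phgdh (22.2 ± 1.98) and Shmt2 (22.2 ± 0.424), which do not differ beyond their spread. Mthfd1 (16.2 ± 1.54), Mthfd2 (16.2 ± 1.29) and Shmt1 (14.6 ± 0.692) followed within each other's spread, then Aldh1l2 at 12.9 ± 0.514. Mthfd1l (9.0 ± 0.421), Mthfd2l (8.75 ± 0.244) and Psph (8.03 ± 0.257) were lowest. In cKO the highest means were those of Phgdh (38.6 ± 2.69), Mthfd2 (31.8 ± 7.47) and Psat1 (25.0 ± 2.67 CPM per kilobase). Mthfd2 differed from Phgdh and from Psat1 by less than its own SD. Mthfd1l, at 7.37 ± 0.998 CPM per kilobase, was the lowest in cKO.

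The question set by the pairs of paralogs is whether mitochondrial enzymes moved against their cytosolic counterparts. A ratio of 2 genes within a library needs no scaling between libraries. The paralogs cannot trade 75-base reads through identical stretches, since the longest exact run shared was 19 bases for Shmt2 and Shmt1, 20 for Mthfd2 and Mthfd2l and 20 for Mthfd1l and Mthfd1. With 2 libraries against 2 the two-sided exact permutation test cannot give a p below 0.333. All 7 ratios computed gave that value (0.333 also after adjustment), so they are reported as values.

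Mthfd2 over Mthfd1 was 1.24 and 1.38 in cKO and 0.650 and 0.636 in control, so Mthfd2 had the smaller count of the pair in both controls and the larger in both cKO libraries. These counts are not corrected for transcript length, which is 2085 bases for Mthfd2 and 3241 for Mthfd1. Per kilobase both genes averaged 16.2 CPM in control. The mean log2 ratio moved by 1.02, beside a spread between replicates of 0.078. Shmt2 over Shmt1 was 0.904 and 1.13 in cKO and 1.24 and 1.19 in control, a log2 difference of -0.27 beside a spread of 0.16; it was -0.11 without cKO replicate 2 and -0.43 without cKO replicate 3. Mthfd1l over Mthfd1 was 0.552 and 0.531 in cKO and 0.701 and 0.573 in control, a log2 difference of -0.23 beside 0.15; leaving out replicate 2 of control gave -0.084, and leaving out its replicate 3 gave -0.37. The first of these mitochondrial over cytosolic ratios was therefore higher in cKO and the other two lower.

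Within mitochondria, Mthfd2 over Mthfd2l was 2.71 and 4.27 in cKO and 1.65 and 1.92 in control, a log2 difference of 0.94 beside a spread of 0.35, and 0.61 without cKO replicate 3. The following 3 pairs were added after the values had been seen. Mthfd2 over Mthfd1l, the dehydrogenase over the formate-releasing synthetase of the next step, was 2.24 and 2.59 in cKO and 0.928 and 1.11 in control, a log2 difference of 1.25. Mthfd2 over Shmt2 was 1.39 and 1.35 in cKO and 0.635 and 0.692 in control, and had the smallest spread between replicates (0.066). Phgdh over Psat1 was 1.15 and 1.09 in cKO and 0.697 and 0.585 in control. In each of these added pairs both cKO libraries lay above both controls. Each pair set a called gene over 1 that was not called, so this separation restates the rises of Mthfd2 and Phgdh.

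**Figure D3:**
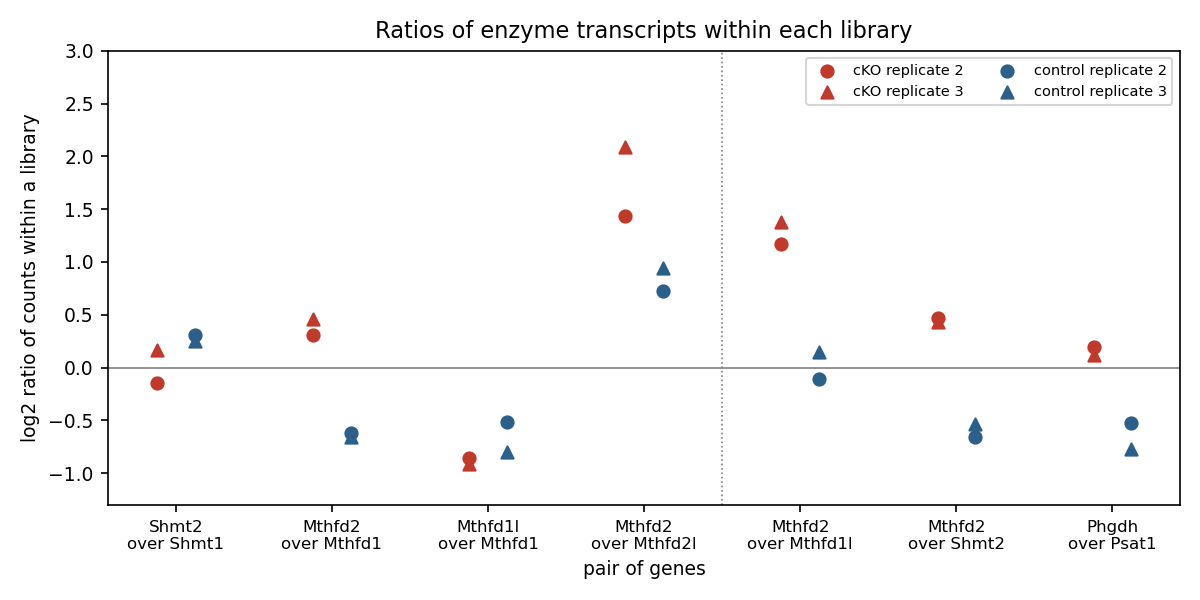
Log2 ratio of the counts of 2 genes within each library, with the 4 planned pairs left of the dotted line and the 3 added pairs right of it; red is cKO, blue is control. Mthfd2 is higher in cKO relative to every partner shown, while Shmt2 over Shmt1 and Mthfd1l over Mthfd1 are lower.

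Genes next to these enzymes were grouped in lists. Of 9 glycolysis genes around 3-phosphoglycerate 6 fell and 0 rose, with a median log2 fold change of -0.76. This list holds enzymes that lead to 3-phosphoglycerate and enzymes that act on it or after it. Fewer were called without control replicate 3. Pgk1, which makes 3-phosphoglycerate, fell to 534 ± 23.6 CPM from 1197 ± 67.0 CPM in control, a log2 difference of -1.16 (adjusted p = 0.00128). Tpi1, a triose phosphate isomerase, fell 1.92-fold (adjusted p = 0.00204) and Aldoa, an aldolase, fell 1.87-fold (adjusted p = 0.00309). Eno1, an enolase downstream of the branch, fell 1.71-fold (adjusted p = 0.0153), and lost its call without control replicate 2 (0.0824) or 3 (0.0876). Near-identical copies hold 41.0% as many counts as Eno1, and with these added it fell 1.76-fold (adjusted p = 0.0134). Gapdh, also among the 6, has copies with 48.4% as many counts, and with these added its call was lost (log2 fold change -0.48, adjusted p = 0.0732), which left 5 of the 9 called. Gapdh and the sums with copies were added after the values had been seen. The transcript of Phgdh, which draws on 3-phosphoglycerate, was therefore higher in the same libraries in which Pgk1 was lower.

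A further 5 lists held 68 genes. They were other folate enzymes, folate and serine carriers, glycine cleavage and serine use, purine and thymidylate synthesis, and the methionine cycle with transsulfuration. Of the 63 tested, 0 passed edgeR's test, 4 had an unadjusted p under 0.05 (6.97% of all genes did) and 0 passed DESeq2's test. Their median log2 fold change was 0.03, and 37 were positive. The medians ran from 0.018 for the methionine cycle and transsulfuration to 0.096 for the other folate enzymes. The genes with the smallest p in each list were Qdpr, a dihydropteridine reductase (log2 fold change 0.27 ± 0.10), Slc1a4, a carrier of neutral amino acids including serine (0.59 ± 0.19), Gldc of the glycine cleavage system (-0.34 ± 0.20), Adssl1 of purine synthesis (0.26 ± 0.09) and Cth of transsulfuration (1.24 ± 0.34). Cth, which makes cysteine, stood at 3.65 ± 0.160 and 1.55 ± 0.318 CPM (adjusted p = 0.415).

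**Figure D4:**
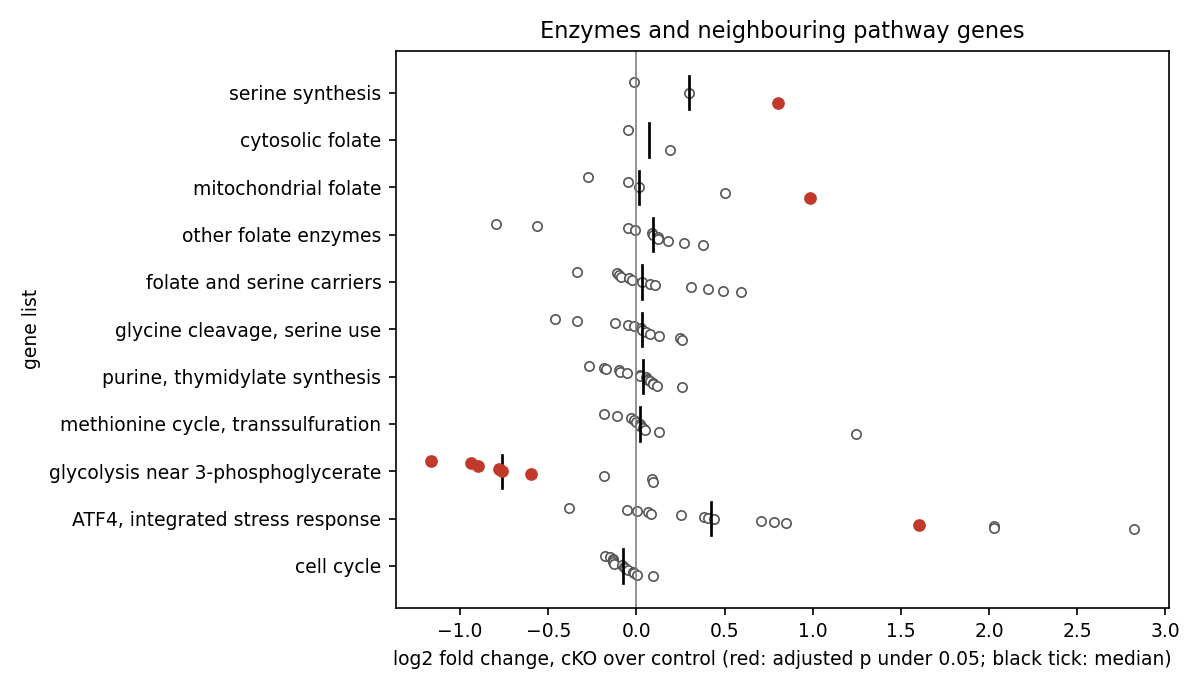
Log2 fold change of each tested gene in the enzyme groups and neighbouring lists, 1 point per gene, red where the adjusted p was under 0.05 and with a black tick at the list's median. Red points stand below 0 for 6 glycolysis genes and above 0 for Phgdh, Mthfd2 and Asns.

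Of 16 tested genes of ATF4 and the integrated stress response 1 rose and 0 fell. Their median log2 fold change was 0.42, and 14 were positive. At an unadjusted edgeR p under 0.05, 10 of the 16 were higher and 1 lower, against 6.97% of all genes in either direction. Both cKO libraries stood above both controls for 11 (19.4% of all genes) and below for 1 (18.8%). Asns, which makes asparagine, stood at 39.2 and 55.6 CPM in cKO and 15.1 and 16.4 CPM in control (3.04-fold, adjusted p = 0.00595). Its call was lost without control replicate 2 (0.0766) or 3 (0.0706). Atf4 itself averaged 116 ± 12.6 CPM with the Cre and 87.7 ± 9.16 CPM without it, a log2 fold change of 0.41 ± 0.11 (adjusted p = 0.393). The number of called genes in this list went from 1 to 5 without cKO replicate 2 and to 0 without control replicate 2 or 3. Of 7 other regulators known for these pathways 0 passed edgeR's test and 1 passed DESeq2's (Hif1a, adjusted p = 0.0286), and Hif1a had the smallest p, with a log2 fold change of 0.35 ± 0.09 (adjusted p = 0.317 by edgeR). Of 14 cell cycle genes 0 passed, none by DESeq2 either, with a median of -0.077 and 12 negative values. Both cKO libraries lay below both controls for 5 of them and above for 0. Mki67, a marker of dividing cells, had -0.18 ± 0.09.

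Some other measures moved with the groups or with 1 library. Heart muscle markers summed to between 26887 and 30901 CPM in cKO and 28819 and 29931 in control. All 9 endothelial markers had negative log2 fold changes (median -0.21, 0 called), with sums of 1250 and 1378.5 CPM in cKO and 1474 and 1542 in control. The 9 erythroid markers summed to 1807 CPM in cKO replicate 2, against 4205 in cKO replicate 3 and 3439 and 3820 in control, and 9 of the 10 enzymes were lower in that library than in cKO replicate 3. Of 8 epicardial markers 1 fell (Krt19, adjusted p = 0.0347), with sums of 347 and 260 CPM in cKO and 327 and 366 in control. The Krt19 call was lost without a filter (0.062), at 5 mean CPM or more (0.0601), and on leaving out cKO replicate 3 (0.0754) or either control library (0.108 for replicate 2, 0.260 for replicate 3). Smooth muscle and pericyte markers summed to 399 and 425 CPM in cKO and 499.9 and 488 in control, with 0 of 5 called by edgeR and 1 lower by DESeq2 (Tagln, adjusted p = 0.043). Cushion mesenchyme markers summed to 846 CPM in replicate 2 and 1132.5 in replicate 3 of cKO, beside 828 and 1159.5 in those of control, with 0 of 7 called. Atrial and immune marker sums overlapped between the groups. Replicate 3 of cKO was the only male by Xist and Ddx3y. The part of these differences in the results was not tested. Without cKO replicate 2 the log2 fold changes of Phgdh and Mthfd2 were 0.87 and 1.20, and without cKO replicate 3 they were 0.72 and 0.71. In bulk tissue, fewer cells of a type and less RNA per cell cannot be told apart.

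**Figure D5:**
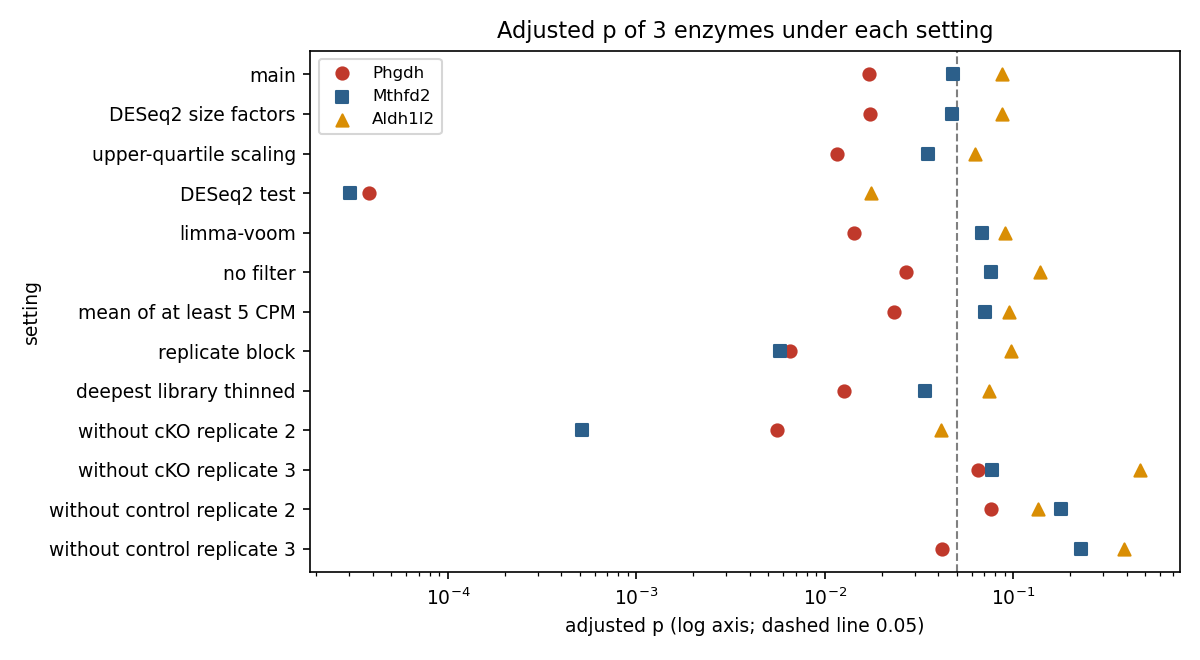
Adjusted p of Phgdh, Mthfd2 and Aldh1l2 under the reported analysis (main) and each other setting, on a log axis with a dashed line at 0.05. Phgdh lies left of the line except without cKO replicate 3 or control replicate 2, Mthfd2 lies on either side, from 3.02e-05 under DESeq2's test to 0.229 without control replicate 3, and Aldh1l2 is left of it only under DESeq2's test and without cKO replicate 2.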

How the data were processed

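Values are expected counts, estimated read numbers per gene that can be fractional, as deposited by the authors in 1 table. The submitters' processing notes name RSEM 1.2.3, cutadapt 1.3, CASAVA 1.8.2 and build GRCm38; annotation and settings: not given in the sources used here. Symbols, positions and transcript lengths came from GENCODE M21 on GRCm38, which named 36345 of 38293 identifiers.

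Expected counts were rounded. Genes were filtered by group (edgeR's filterByExpr, minimum count 10, minimum total 15), scaled by TMM and tested with edgeR 4.0.16 (glmQLFit, glmQLFTest; R 4.3.3) on 2 residual degrees of freedom, without a block, with Benjamini-Hochberg adjustment over all 13711 genes and a threshold of 0.05. The standard error is the log2 fold change over the square root of F, and 95% intervals use the fit's total degrees of freedom. The steps were tested on simulated counts. Ratios used a pseudocount of 0.5. Copies were sought with BLAST 2.17.0. Alternatives were DESeq2 1.42.0, limma 3.58.1 (voom), other scalings and filters, thinning of cKO replicate 3, the replicate block and each library left out.

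All 10 members were named; of each other list, up to 4 called genes or else the gene with the smallest p, plus Hif1a and Atf4. Krt19, Tagln, Gapdh and the genes that share exons with members were chosen after their values were seen. The members and lists were chosen with earlier results of these data known.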

Additional observations from a re-analysis of the deposited data

How the results depend on the processing

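The fold changes of Phgdh, Mthfd2, Aldh1l2, Psph, Shmt1 and Mthfd1l kept their sign under every setting run; whether a call was made did not. With 2 libraries per group, a left-out library leaves 1 that is assumed to vary like the other group. Members called higher numbered 2, against 1 under limma-voom, without a filter, or at 5 mean CPM or more, and 0 to 3 with 1 library left out; Mthfd2 then had log2 fold changes of 0.98, 0.99 and 0.98. Leave-outs gave 0.71 to 0.90 for Phgdh, 0.71 to 1.20 for Mthfd2 and 0.41 to 0.59 for Aldh1l2, which passed under DESeq2 (0.50). Values near 0 changed sign: Psat1 to 0.0044 under upper-quartile scaling and from -0.22 to 0.22 in leave-outs, Mthfd1 to 0.0023 with cKO replicate 3 thinned and -0.24 to 0.098 in leave-outs, Shmt2 from -0.35 to 0.17 in leave-outs, and Mthfd2l to -0.00052 under limma-voom, -0.026 with thinning and -0.062 to 0.11 in leave-outs. Over all genes 39 to 141 were called in leave-outs, 15 to 72 higher and 24 to 69 lower, against 70 in full; 31 were higher under DESeq2 and 10 with the filter of 5 mean CPM. In leave-outs 3 to 5 glycolysis and 0 to 5 ATF4 genes were called; the ATF4 list had 2 under upper-quartile scaling, DESeq2 and the replicate block, and the other regulators 1 under DESeq2. For these shifts, the cause was not tested. Summing the 4 copies of Phgdh in the deposited table could change nothing, since they were at 0. Its other copies have no counts there and could not be summed. The labels tie replicate numbers to no shared source; across genes, libraries of 1 number deviated from their group means with a correlation of 0.11. The replicate block gave 75 calls, with Phgdh at 0.80 and Mthfd2 at 0.97 on the log2 scale. Leave-outs gave log2 differences of 0.94 to 1.10 for Mthfd2 over Mthfd1, -0.43 to -0.11 for Shmt2 over Shmt1, -0.37 to -0.084 for Mthfd1l over Mthfd1 and 0.61 to 1.26 for Mthfd2 over Mthfd2l. At these depths and with 2 libraries per group, differences of 0.50 (Aldh1l2) and 0.41 (Atf4) did not pass edgeR's test, though Aldh1l2 passed DESeq2's.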
